A study of Mus musculus with 3 samples.

Results

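Class 3 of the lamina-associated domains (LADs) of mouse fibroblasts was a set of 312 mostly short, gene-rich domains. The members were the LADs to which the authors' deposited table gives the class number 3, 312 of 1128 LADs on 19 autosomes, so no transcript level was used to choose them here. The label held in the annotation when every overlapping coding gene was counted. The median length was 236 kb, against 1517 kb in class 1 and 300 kb in class 2. Class 3 had 6.18 overlapping coding genes per Mb, against 4.55 and 2.73. Of 787 coding genes that overlapped class 3 LADs, 649 had their start inside, and rates by gene start were not computed. RNA was sequenced in 3 mouse embryonic fibroblast lines, labelled iMEF and derived independently from a single mouse colony, with 1 TruSeq library for each line. The lines carry replicate numbers, used here as their names (lines 1, 2 and 3), and the descriptions WT23T, WT47T and WT78T. All were grown in high-glucose medium with serum, and the labels give no treatment, further genotype or age. Each line was 1 library, so differences between lines and differences between libraries cannot be told apart.

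LADs are long stretches of chromosome that touch the nuclear lamina, the protein meshwork under the inner nuclear membrane. Most of their chromatin is compact and carries repressive methylation on histone tails, and most genes in them are weakly transcribed or off. A LAD can also hold transcribed genes, either inside it or reaching over its border. The series title ties the classes to histone methylation patterns, and those marks were not analysed here.

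The table held 276625 counts in class 3 LADs in line 1, 237888 in line 2 and 285648 in line 3, out of 1566086, 1496099 and 1726062 counts in all LADs. Values are given as CPM, the count scaled to 1000000 counts in LADs of the same line. Transcript density is CPM divided by the length of the LAD in Mb, and the log2 scale is log2(CPM per Mb + 1). Over lines 1, 2 and 3 the median class 3 LAD had 48, 28 and 95 counts. The detection floor of 3 counts was worth 1.92, 2.01 and 1.74 CPM, and this floor covers counting error only. Counts were summed over a whole LAD, so they cannot be assigned to one of its genes, and in bulk RNA fewer transcribing cells and less RNA per cell cannot be told apart.

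The sequences just upstream of gene starts show what kinds of promoter class 3 LADs contain. Of 787 protein-coding genes that overlapped class 3 LADs, 649 had their annotated start inside, and 527 of these were matched by symbol to the RefSeq promoter table (build GRCm38.p6). For each start, the 250 upstream bases were scored for the dinucleotide CG, which is usually rare in mouse DNA except in CpG islands. A promoter was called CpG-rich at a GC content of at least 55% with an observed over expected CG ratio of at least 0.65. Class 3 LADs held 645 RefSeq starts of 539 genes, since some genes have several, and 135 of these promoters (20.9%) were CpG-rich, compared with 9.35% of 2887 in class 1 LADs, 12.2% of 500 in class 2 LADs and 25.3% of all 32851 in the table. The letters TATAAA, searched on both strands, occurred in 11.2% of class 3 promoters, 26.8% of class 1, 19.4% of class 2 and 12.4% of all promoters. No test was made, since neighbouring promoters share a domain.

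The 4 sequences that follow come from strongly transcribed class 3 LADs and are printed 5′ to 3′ in gene orientation with every CG in capitals. Npepl1, a leucyl-aminopeptidase-like gene, has the CpG-rich upstream sequence chr2:174110101-174110350 on the plus strand, with 31 CGs and 79.2% GC. Crtap, whose product is part of the complex that modifies prolines in collagen, has chr9:114390713-114390962 on the minus strand, with 10 CGs and a TATAAA. Prl2c3 and Prl2c5, prolactin-family paralogs, have chr13:12800080-12800329 on the minus strand and chr13:13182466-13182715 on the plus strand, with 1 and 2 CGs. Their 250 bases were alike at 182 positions (72.8%) when set side by side without gaps. This understates their likeness, since the last stretch of Prl2c5 is shifted by 1 base and matches most of Prl2c3 once moved.
Npepl1: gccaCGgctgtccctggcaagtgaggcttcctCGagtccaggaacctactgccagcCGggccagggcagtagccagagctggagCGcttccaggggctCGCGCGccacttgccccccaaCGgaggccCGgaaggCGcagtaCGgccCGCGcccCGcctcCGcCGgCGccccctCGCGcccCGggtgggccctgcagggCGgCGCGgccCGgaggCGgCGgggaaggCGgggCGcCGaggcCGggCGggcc
Crtap: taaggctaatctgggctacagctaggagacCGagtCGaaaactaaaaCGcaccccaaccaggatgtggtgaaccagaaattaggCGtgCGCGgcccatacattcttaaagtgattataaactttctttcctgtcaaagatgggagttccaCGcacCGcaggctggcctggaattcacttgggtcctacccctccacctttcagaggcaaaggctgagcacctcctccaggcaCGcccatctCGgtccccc
Prl2c3: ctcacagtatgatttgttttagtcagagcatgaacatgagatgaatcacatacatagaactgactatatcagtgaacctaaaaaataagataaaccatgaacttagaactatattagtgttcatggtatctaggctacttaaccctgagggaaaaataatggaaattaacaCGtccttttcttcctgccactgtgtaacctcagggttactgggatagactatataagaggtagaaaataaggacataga
Prl2c5: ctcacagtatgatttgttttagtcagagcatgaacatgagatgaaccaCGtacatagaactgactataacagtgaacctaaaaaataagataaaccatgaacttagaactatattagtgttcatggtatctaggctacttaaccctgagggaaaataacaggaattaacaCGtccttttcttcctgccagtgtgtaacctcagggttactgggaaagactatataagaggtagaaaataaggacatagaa

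The next 4 come from LADs that were silent or differed widely between lines. Ptf1a, a pancreatic and neural transcription factor, lies in a LAD with 0 counts in all 3 lines although its upstream sequence (chr2:19445413-19445662, plus strand) is CpG-rich with 19 CGs. Drd2, the dopamine D2 receptor gene (chr9:49340153-49340402, plus strand), has 15 CGs and a CG ratio of 0.51. Myh4, a fast skeletal muscle myosin gene (chr11:67237562-67237811, plus strand), has 1 CG and a TATAAA. Serpina3g, a serine protease inhibitor gene (chr12:104235897-104236146, plus strand), has 4 CGs.
Ptf1a: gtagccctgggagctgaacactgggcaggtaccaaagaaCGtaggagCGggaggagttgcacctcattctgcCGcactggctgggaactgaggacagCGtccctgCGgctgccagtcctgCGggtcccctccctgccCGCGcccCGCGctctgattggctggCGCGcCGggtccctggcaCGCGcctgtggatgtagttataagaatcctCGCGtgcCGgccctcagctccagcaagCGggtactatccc
Drd2: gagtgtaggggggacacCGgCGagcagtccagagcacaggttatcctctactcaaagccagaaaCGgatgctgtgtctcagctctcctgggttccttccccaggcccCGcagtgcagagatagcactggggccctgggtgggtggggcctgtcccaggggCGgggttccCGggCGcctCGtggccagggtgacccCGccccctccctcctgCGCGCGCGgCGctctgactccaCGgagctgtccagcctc
Myh4: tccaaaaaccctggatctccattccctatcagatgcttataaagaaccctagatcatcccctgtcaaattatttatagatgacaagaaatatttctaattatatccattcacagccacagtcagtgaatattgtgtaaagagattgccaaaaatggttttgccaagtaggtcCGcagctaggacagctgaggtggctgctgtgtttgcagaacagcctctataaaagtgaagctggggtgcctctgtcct
Serpina3g: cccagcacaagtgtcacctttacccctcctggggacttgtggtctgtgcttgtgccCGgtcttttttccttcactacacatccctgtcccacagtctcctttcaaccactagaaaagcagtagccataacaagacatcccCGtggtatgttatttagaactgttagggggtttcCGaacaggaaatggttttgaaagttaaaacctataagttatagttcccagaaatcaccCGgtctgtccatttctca

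CG content did not sort these 8 promoters into transcribed and silent domains: a CpG-rich promoter stood in a silent LAD and CG-poor promoters in 1 of the 5 LADs with the most counts. Over the whole class, 26.6% of the 290 promoters in the 25% of LADs with the highest transcript density were CpG-rich. Silent LADs, those whose count was 3 or less in each line, held 10 matched promoters, of which 1 (Ptf1a) was CpG-rich. Yet the medians of these 10 were 60.4% GC, a CG ratio of 0.52 and 10.5 CGs. The 290 promoters had lower medians, at 53.6%, 0.43 and 7. With 10 promoters, the silent LADs cannot be called poor or rich in CG.

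Class 3 LADs were concentrated toward the far end of the chromosomes. Position was taken as the LAD centre in percent of the distance from the chromosome start to the last annotated gene. Mouse autosomes have the centromere near the start, so a high percentage is toward the telomere. The median class 3 LAD lay at 69.6%, compared with 41.5% for class 1 and 42.5% for class 2. Of the 312 class 3 LADs, 205 (65.7%) lay beyond 60%, as did 33.0% of class 1 and 31.2% of class 2 LADs. By sequence, 74.2% of class 3 lay there, against 36.5% and 37.5%. On each of the 19 chromosomes the class 3 median was farther along than the median of the other LADs, with the widest gap on chromosome 1 (87.0% against 35.0%). It was small on chromosome 19 (38.3% against 35.0%, 5 class 3 LADs). Positions are not replicated measurements, and no test was made.

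**Figure D1:**
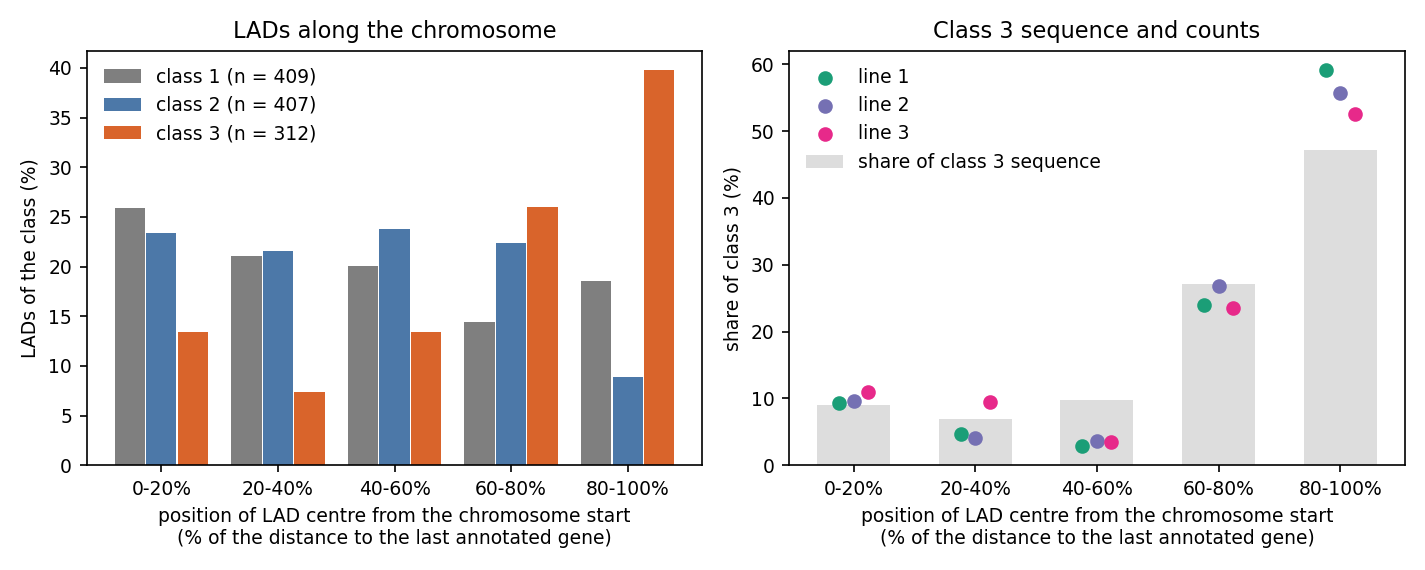
Left, percent of the LADs of each class (bars, y axis) in each 20% band of the distance from chromosome start to last annotated gene (x axis). Right, share of class 3 sequence (grey bars) and of class 3 counts in each line (points) by the same bands. The last band held 124 class 3 LADs and between 52.5% and 59.1% of class 3 counts.

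Transcripts of class 3 LADs were also concentrated in the last 20% band of the chromosomes. It held 124 LADs, 47.1% of class 3 sequence and 59.1%, 55.7% and 52.5% of class 3 counts in lines 1, 2 and 3 (mean 55.8% ± 3.28, SD, n = 3). The same band held 29.1% ± 0.529 of class 1 counts on 18.7% of class 1 sequence, and 18.8% ± 3.75 of class 2 counts on 11.02% of its sequence, so counts above the share of sequence were seen in each class. In class 3 the pooled transcript density of the band, all CPM over all Mb, was 1530 ± 158 CPM per Mb. The band from 60% to 80% had 1181 ± 60.8, the middle band 441 ± 33.2 and the first band 1412 ± 118. The band from 20% to 40% had 1141 ± 550 over 23 LADs, and its share of class 3 counts was 4.67% in line 1, 4.11% in line 2 and 9.53% in line 3. It holds the LAD of Chrm2 and Ptn described further on, and without the 10 highest class 3 LADs it had 760 ± 44.2.

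The high value of the first band rested on few LADs. Without the 10 highest class 3 LADs, which include 3 LADs of the first band, its density was 378 ± 151 CPM per Mb, while the last band had 1016 ± 67.9. The median LAD had a log2 density of 6.06 ± 0.27 in the first band, 4.59 ± 0.71, 5.96 ± 0.73 and 7.39 ± 0.40 in the next ones and 7.70 ± 0.43 in the last. Among LADs above the median length the median was 8.70 ± 0.50 in the last band and 8.36 ± 0.65 in the first. Among LADs up to the median length it was 5.61 ± 1.02 and 3.87 ± 0.57. Spearman's rho of position with log2 density was 0.18 over the 312 LADs (0.19, 0.17 and 0.16 in lines 1, 2 and 3), a description of LADs that share libraries and neighbourhoods.

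Class 3 LADs tended to neighbour each other. The nearest LAD was another class 3 LAD for 165 of 312 (52.9%), although class 3 makes up 27.7% of all LADs. It was a class 1 LAD for 99 and a class 2 LAD for 48. The median gap was 410 kb to the nearest class 3 LAD, 897 kb to the nearest class 1 LAD and 2771 kb to the nearest class 2 LAD. The same clustering by own class was seen elsewhere, with 46.9% of class 1 and 65.1% of class 2 LADs nearest to their own class.

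The distance to other LADs had little relation to transcript density within class 3. Spearman's rho with log2 density over 312 LADs was -0.007 for the gap to class 1, 0.050 for class 2 and -0.068 for class 3. With LADs ranked by the gap to class 1 and cut into 4 groups, the medians followed no order, at 7.95, 4.74, 7.47 and 7.46 from the closest group to the farthest. Pooled density over the same groups was 1836 ± 86.5, 986 ± 67.8, 1024 ± 30.5 and 1359 ± 106 CPM per Mb. The closest group stood above the others in pooled density by more than its spread over lines. That spread does not show how far a few LADs carried the value, and the groups were not repeated without the highest LADs. Class 3 LADs most isolated from their own class, the farthest of 4 groups, held 18 silent members of 78, compared with 11 of 81, 7 of 75 and 11 of 78 in the nearer groups.

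Silent LADs were mostly short, and the longest LADs carried most class 3 transcripts. In total 47 class 3 LADs (15.1%) were silent, against 12.1% of all LADs, and 17 (5.45%) had 0 counts in every line, against 5.85% of all LADs. Of the 78 shortest, from 50 to 112.5 kb, 30 were silent, compared with 9, 7 and 1 of 78 in the next groups of equal size. The shortest group had a pooled density of 431 ± 109 CPM per Mb, and the next ones 1289 ± 57.8, 1036 ± 40.5 and 1439 ± 98.6. Median log2 densities were 4.70 ± 0.61, 6.50 ± 1.37, 6.74 ± 0.70 and 9.51 ± 0.19. The longest group, from 497.5 to 7065 kb, held 73.0%, 71.6% and 69.9% of class 3 counts in the 3 lines with 64.1% of its sequence.

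Spearman's rho of length with log2 density was 0.32 over 312 LADs (0.28, 0.32 and 0.27 in lines 1, 2 and 3). Restricted to members whose summed count reached 10, it was 0.089. A fixed floor of 3 counts corresponds to a higher density in a shorter LAD, and length moved with the number of coding genes (rho 0.57). The part of each in the relation was not tested.

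**Figure D2:**
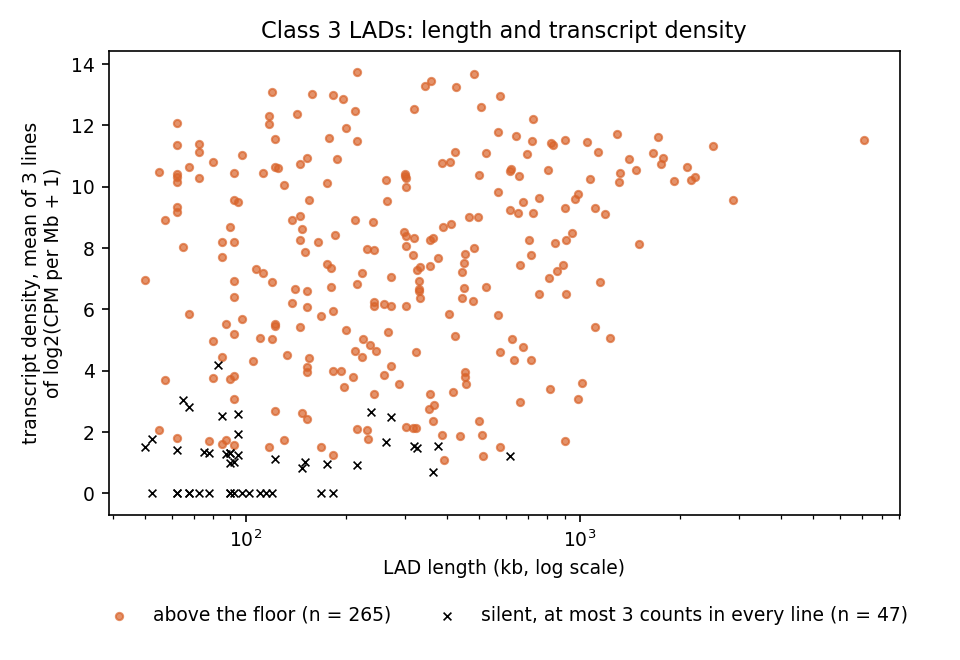
Each point is 1 of 312 class 3 LADs, with length in kb on a log axis and the mean over 3 lines of log2(CPM per Mb + 1) on the y axis. Crosses are the 47 silent LADs, 30 of them among the 78 shortest LADs, and high densities occur at most lengths.

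A few domains accounted for much of the class. The single LAD with the most counts held 13.4%, 13.5% and 10.5% of class 3 counts in lines 1, 2 and 3 with 5.46% of class 3 sequence. The 10 highest held 38.6% ± 1.30 and the 50 highest 85.7% ± 3.02. The highest 16 LADs (5.13%) held 50% of class 3 counts. The 156 LADs up to the median length held 11.6%.

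Class 3 LADs with more coding genes had higher transcript density. The 59 LADs without a coding gene had a pooled density of 82.2 ± 9.13 CPM per Mb, and 27 of them were silent. The 109 with 1 coding gene had 485 ± 78.2 and 14 silent members. The 88 with 2 to 3 genes had 1173 ± 120 and 6 silent members, and the 56 with at least 4 genes had 1982 ± 194 and 0 silent members. The last group held 68.6%, 67.0% and 60.7% of class 3 counts in the 3 lines. The pooled densities of the 4 groups did not overlap over the lines. Spearman's rho with log2 density was 0.51 for the number of coding genes, 0.45 for the percent of exonic bases and 0.36 for coding genes per Mb, over 312 LADs.

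Class 3 LADs with a CpG-rich promoter inside were the most transcribed group. These 75 LADs had median log2 densities of 9.22, 9.16 and 9.42 in lines 1, 2 and 3, and held 66.4%, 65.3% and 57.6% of class 3 counts. The 100 LADs with matched promoters of which none was CpG-rich had 7.56, 7.28 and 8.16. Their median length was 302 kb, against 575 kb for LADs with a CpG-rich promoter. The difference was present below and above the median length: 8.12 ± 0.31 (14 LADs) against 6.52 ± 0.96 (38 LADs) up to the median length, and 9.38 ± 0.12 (61) against 7.89 ± 0.49 (62) above it. Over lines 1, 2 and 3 the shorter LADs had medians of 8.47, 7.93 and 7.95 with a CpG-rich promoter and 6.50, 5.57 and 7.49 with other promoters. The CpG-rich group was higher in each of the 3 lines in both length groups. The number of coding genes, whose rho with log2 density was 0.51, was not held equal between these groups. The part of promoter type and of gene number in the difference was not tested.

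A gene start inside the domain was not needed for transcripts to be counted there. The 60 class 3 LADs that overlapped a coding gene whose start lay outside had median log2 densities of 7.79, 7.44 and 8.98, and 10 were silent. In 44 class 3 LADs (14.1%) the whole domain lay inside 1 coding gene, as in 11.8% of class 2 and 0.978% of class 1 LADs. Their median length was 97.5 kb and their median log2 density 7.95 ± 0.79, and the others had 6.75 ± 0.69. The others include the LADs without a coding gene. Over all 253 class 3 LADs with a coding gene the median was 7.97, so the domains inside a gene did not stand above these. Some gene crossed a border in 226 class 3 LADs, whose pooled density was 1459 ± 81.9 CPM per Mb, and the 86 without had 723 ± 28.8. Pseudogenes that match a coding transcript at 95% identity or more along 300 bases or more lay in 73 class 3 LADs that held 54.0% ± 1.17 of class 3 counts. Their pooled density was 1752 ± 55.8, against 987 ± 77.9 for the other 239. How reads that fit several places were counted is not given in the sources used here, and the part of pseudogenes in these values was not tested.

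**Figure D3:**
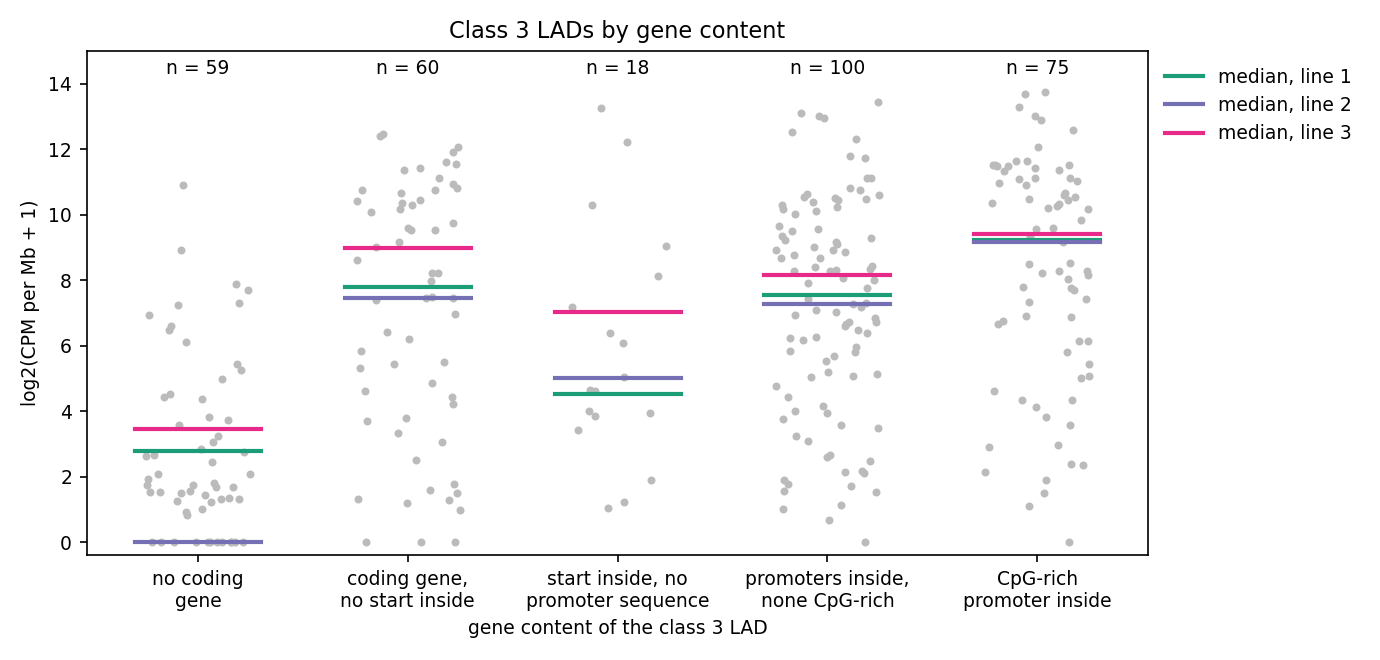
Grey points are class 3 LADs, as the mean over 3 lines of log2(CPM per Mb + 1), grouped on the x axis by the coding genes and promoters inside. Horizontal bars are the medians in each line, between 9.16 and 9.42 for the 75 LADs with a CpG-rich promoter and between 0 and 3.47 for the 59 without a coding gene.

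The class 3 LAD with the most transcripts was also the longest, chr3:152828127-159893104, with 26 coding genes and 37125, 32227 and 30006 counts in lines 1, 2 and 3. Its genes include Acadm, which starts medium-chain fatty acid oxidation in mitochondria, Cth, an enzyme that makes cysteine, Negr1, a neuronal adhesion protein, and Ptger3, a prostaglandin E2 receptor. The density was 2955 ± 455 CPM per Mb, and 4 near-identical pseudogenes lay in it. Line 3 was the lowest by CPM. The next, chr1:192899391-195404382, had 18178, 7079 and 8356 counts. It holds Lamb3, a laminin chain of epithelial basement membranes, Hsd11b1, which regenerates active glucocorticoid, G0s2, an inhibitor of fat breakdown, and Cd34. Line 1 was high there and lines 2 and 3 were close to each other.

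The LAD chr2:173764361-174246859 had 11178, 9950 and 9097 counts. It contains the end of Vapb, an endoplasmic reticulum tethering protein, and the whole of Stx16, a Golgi syntaxin, and Npepl1, whose promoter is printed above. Its density of 13167 ± 2007 CPM per Mb was the second highest of the class. The LAD also holds Gm14336, a pseudogene 96.1% identical to Rpl21 over 484 bases, and the part of Rpl21 reads was not tested. The LAD chr6:147176682-148891675, with Pthlh (parathyroid hormone-like hormone), Far2, Ergic2 and the nuclear import receptor Ipo8, had 8953, 8612 and 8302 counts. The log2 range over the 3 lines was 0.26 there, so they lay close together.

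The LAD of the prolactin-family genes Prl2c2, Prl2c3 and Prl2c5, chr13:12730802-13305799, had 6997, 6903 and 7840 counts and a density of 7898 ± 127 CPM per Mb. Members of this family are also called proliferins and are known from placenta and from cultured growing cells. The paralogs are near copies and 6 near-identical pseudogenes lie in the LAD, so the split between genes is uncertain. Among these, Gm2423 matches Ywhaq (99.7% over 733 bases), Gm5374 matches Rock1 (97.1% over 660) and Gm7042 matches Snu13 (97.1% over 384). Those genes lie outside the LAD, and the part of their reads in its total was not tested. The sum for the LAD was nearly equal in all 3 lines (log2 range 0.05). In chr6:5644630-6932125, with the dynein chain Dync1i1, the mitochondrial carrier Slc25a13, the proteasome subunit Sem1 and the homeobox genes Dlx5 and Dlx6, the counts were 7278, 6733 and 6743. It also holds the pseudogenes Gm8652, which matches Hnrnpa1 (96.9% over 963 bases), and Gm5873, which matches Fdps (96.7% over 1066). The part of reads of Hnrnpa1 and Fdps there was not tested. The LAD chr4:9150895-9575893, with Clvs1 and the end of Asph, an aspartyl hydroxylase gene, had 6662, 5576 and 7648.

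Of the 8 highest class 3 LADs, chr6:35644535-36779530 alone differed at least 4-fold between lines. It had 3031 counts in line 1, 1257 in line 2 and 17289 in line 3, or 1935, 840 and 10016 CPM. Line 3 stood far above the others. Its coding genes are Chrm2, a muscarinic acetylcholine receptor, which starts inside, and Ptn, the secreted growth factor pleiotrophin, which crosses the border and starts outside. The LAD also holds Gm43442, a pseudogene 99.5% identical to Sppl3 over 412 bases.

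**Figure D4:**
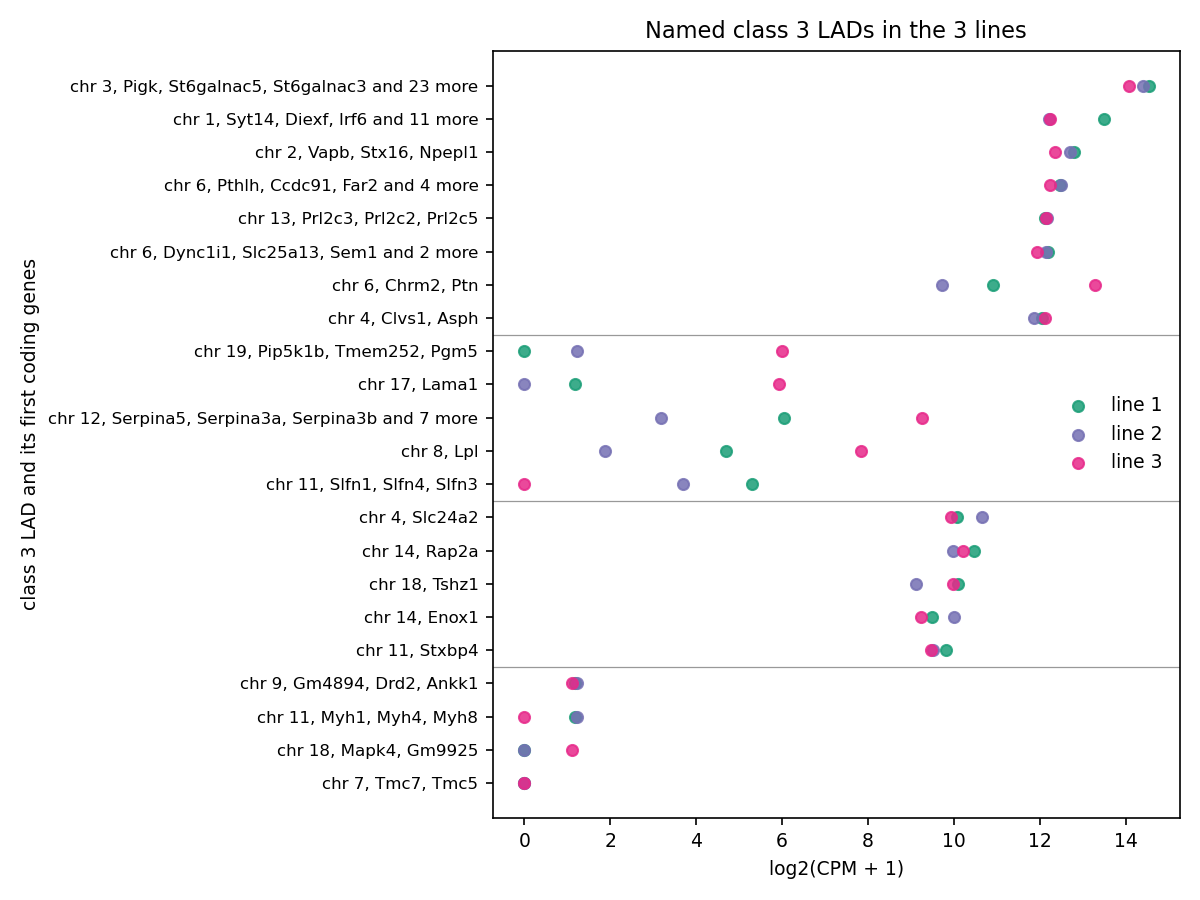
Each point is the log2(CPM + 1) of 1 class 3 LAD (y axis, by its first coding genes) in 1 line (colour). From top to bottom the sections hold the 8 highest LADs, the 5 with the widest range between lines, the 5 highest with 1 coding gene and 4 silent LADs among those with the most coding genes. The 3 lines lie close together in most of the highest LADs, and far apart in the LAD of Chrm2 and Ptn.

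The densest class 3 LAD was short. The interval chr9:123576194-123791193, 215 kb long, had 4778, 4572 and 4794 counts and 13774 ± 741 CPM per Mb. It holds the chemokine receptor gene Ccr9, the ciliary trafficking gene Lztfl1 and the amino acid transporter genes Slc6a20a and Slc6a20b, with Sacm1l and Fyco1 crossing its borders. It also holds Gm10052, a pseudogene 100% identical over 960 bases to Hnrnpa1, an abundant RNA-binding protein gene. Reads of that gene and its copy cannot be told apart in this table. The LAD of Crtap, Susd5 and Fbxl2, chr9:114036224-114393722, had 5898, 5920 and 7194 counts and 11087 ± 562 CPM per Mb. The LAD chr2:181686836-182031834, with the RNA polymerase III subunit gene Polr3k, Pcmtd2, Rgs19 and Myt1, had 6124, 5228 and 5046 counts.

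Length did not fix the level among the longest class 3 LADs. The third longest is the LAD of Lamb3 and Hsd11b1, with 2818 ± 1572 CPM per Mb. The fourth, chr3:132983190-135195682, which contains Tet2, an enzyme that oxidises methylcytosine, Ppa2 and Ints12, had 5323, 4202 and 4129 counts and 1296 ± 229 CPM per Mb. It also holds Gm4860, a pseudogene 95.9% identical to Ap1s3 over 459 bases. The fifth, chr2:141634463-143789455, with Macrod2, Kif16b and the splicing factor gene Snrpb2, had 4346, 4209 and 3651.

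Where a class 3 LAD overlaps 1 coding gene, its counts can be set against that gene, though non-coding transcripts and pseudogenes in the LAD are included. The LAD of Slc24a2, a sodium, calcium and potassium exchanger gene (chr4:86948149-87753145), had 1690, 2396 and 1692 counts. The LAD chr14:120503440-120715939, which overlaps the end of the small GTPase gene Rap2a, had 2234, 1509 and 2047. The LAD of the zinc finger gene Tshz1 (chr18:83051254-84041250) had 1707, 837 and 1757, with line 2 lowest. The LAD chr14:77181078-77323576 lies wholly inside Enox1 and had 1127, 1535 and 1034 counts. It also holds Gm10132, a pseudogene 99.8% identical to the ribosomal protein gene Rpl23a over 468 bases. The LAD chr11:90407888-90607886, which overlaps the end of Stxbp4, had 1410, 1086 and 1223. Except for the LAD of Slc24a2, the start of the coding gene lay outside the domain in these LADs.

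Several silent class 3 LADs held coding genes. The LAD chr9:49183930-49421428, with Drd2, Ankk1 and Gm4894, had 2 counts in each line. The LAD chr11:67202961-67297960, with the skeletal muscle myosin genes Myh1, Myh4 and Myh8, had 2, 2 and 0. The LAD of Mapk4 and Gm9925 (chr18:74023783-74173781) had 0, 0 and 2 counts, and the LAD of Tmc5 and Tmc7 (chr7:118579752-118672251) had 0 in every line. All these values were at or under the floor of 3 counts per line, so transcription below it was not detectable at this depth.

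Class 3 LADs differed at least 4-fold between lines about as often as all LADs, and line 3 was most often the highest. A mean count of 10 or more was reached by 209 class 3 LADs, of which 45 (21.5%) had a range of at least 4-fold, against 18.5% of the 839 such LADs of the whole table. Line 3 was the highest in 38 (18.2%), against 12.2% of all tested LADs. Line 2 was the lowest in 32 (15.3%), against 12% of all. Line 1 was the highest in 5 (2.39%), against 4.77% of all, and line 2 in 2 (0.957%), against 1.55% of all. Line 1 was the lowest in 10 (4.78%), against 3.1% of all, and line 3 in 3 (1.44%), against 3.34% of all. Without line 3 the count fell to 14, without line 2 to 29 and without line 1 to 39. No p-value is given, since each line was 1 library. The biological coefficient of variation from edgeR had a median of 0.45 over 183 class 3 LADs and 0.42 over 753 LADs of all classes.

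**Figure D5:**
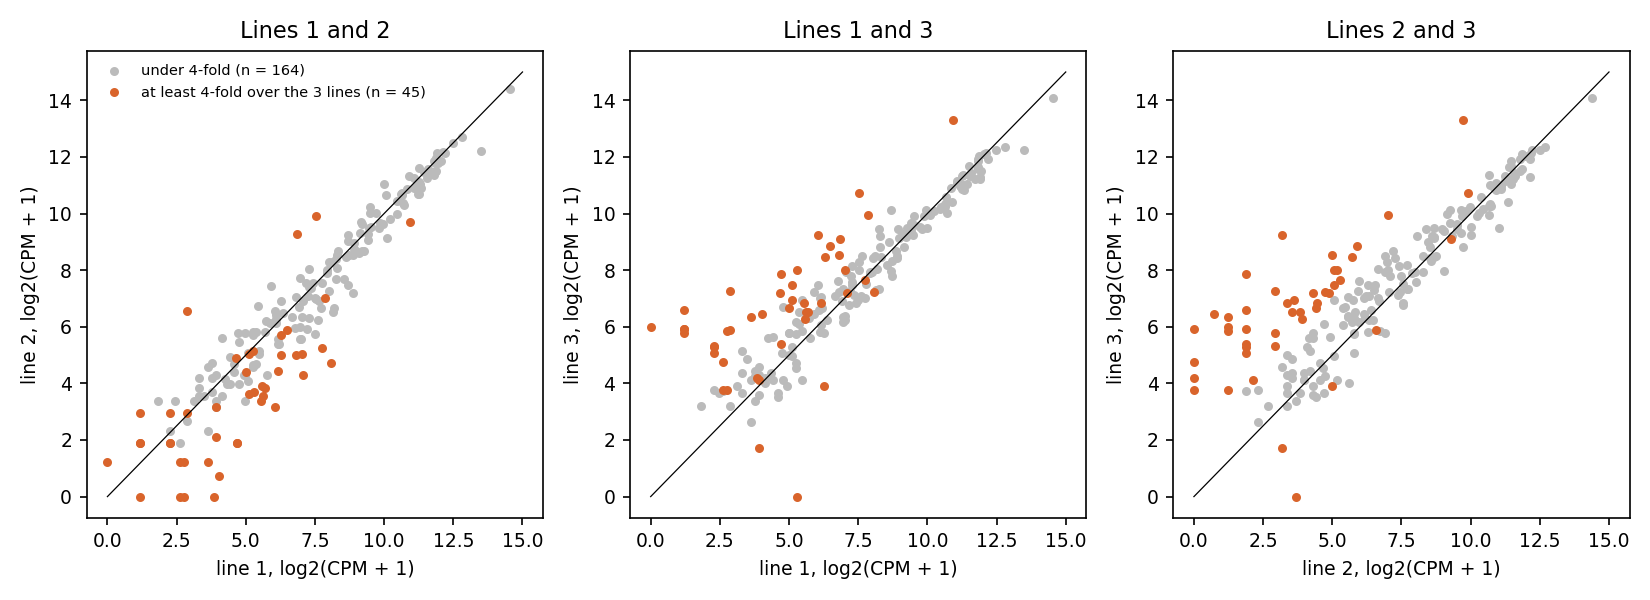
Each point is 1 of the 209 class 3 LADs whose mean count reached 10, as log2(CPM + 1) in a pair of lines, with the line of equality. The 45 coloured LADs differed at least 4-fold over the 3 lines, and most of them lie above the diagonal where line 3 is on the y axis.

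The widest ranges were in LADs with 1 to 10 coding genes. The LAD of Pip5k1b, Tmem252 and Pgm5 (chr19:24486014-24841011) had 0, 2 and 108 counts. The LAD of Lama1, a laminin chain of embryonic basement membranes (chr17:67668875-67821373), had 2, 0 and 104. In both, lines 1 and 2 were under the floor of 3 counts and line 3 was above it. The LAD of Lpl, lipoprotein lipase (chr8:68897990-68982989), had 39, 4 and 396 counts, and Lpl starts outside it. The LAD of 10 serpin genes, Serpina5 and the Serpina3 cluster (chr12:104082415-104399913), had 102, 12 and 1048. The Serpina3 genes are close paralogs, so the split between them is uncertain. The opposite order was seen in chr11:83087911-83197910, with the Schlafen genes Slfn1, Slfn3 and Slfn4, at 60, 18 and 0 counts.

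Some of the other class 3 LADs that differed at least 4-fold are named here after their values were seen, and line 3 was the highest in the first 5. The LAD of Dspp, Dmp1 and Ibsp, matrix proteins of bone and tooth, had 18, 2 and 139 counts. The LAD of Commd10 and Sema6a, the second an axon guidance ligand, had 59, 52 and 441 counts. That of Ror1, a Wnt receptor, had 38, 43 and 250, and that of Dact1, a Wnt pathway modulator, 53, 48 and 306. The LAD of Ulbp1, a stress-induced ligand of natural killer cells, had 363, 194 and 1715. Line 1 was highest in the LAD of Actrt2 and Prdm16, the second a regulator of brown fat fate, with 422, 38 and 254 counts. It was also highest in that of the carbonic anhydrase genes Car1, Car2 and Car3, with 120, 46 and 24. The LAD of F930015N05Rik and the heparan sulfate enzyme gene Hs3st3a1 had 10, 141 and 101, with line 1 low. That of the growth factor receptor gene Fgfr2, which also holds Gpr26, Cpxm2 and Chst15, had 180, 924 and 956, also with line 1 low.

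By chromosome, the deviation of line 3 from the mean of the others had its highest class 3 medians on chromosome 16 (log2 1.95, 7 tested LADs) and chromosome 18 (1.85, 6 LADs), then chromosome 5 (1.07, 14 LADs). The LADs of classes 1 and 2 on those chromosomes had 0.14, 0.21 and 0.18. Line 2 was lowest on chromosome 12 (-1.32, 7 LADs), chromosome 18 (-1.20) and chromosome 5 (-1.17). On chromosome 2 the order was the other way, with line 3 at -0.32 over 15 LADs.

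Counts of clustered gene families in class 3 ranged from 0 to 38 genes. Olfactory receptor genes, which are mostly off outside the nose, counted 38 in class 3 LADs out of 1134 annotated, in 4 LADs, compared with 898 in class 1 and 67 in class 2 LADs. Keratin, defensin, cadherin and protocadherin, Hox, kallikrein and interferon genes had 0 members in class 3. Hox and kallikrein genes had 0 in each of the 3 classes, and keratins and defensins had 0 in class 2 as well. Serpin genes had 21 of 61 in class 3, in 2 LADs, both of which differed at least 4-fold between lines. The second serpin LAD, with Serpina1 genes, had 76, 16 and 157 counts. ADAM and matrix metalloprotease genes, which shed or degrade surface and matrix proteins, had 3 of 74 in class 3, each in a LAD of its own. All 3 LADs differed at least 4-fold with line 3 highest: Adam22 with 203, 48 and 444 counts, Adam12 with Fank1 with 290, 1443 and 2951, and Adamts16 with 6, 4 and 66. Line 1 was the lowest in the LAD of Adam12, and line 2 in the other pair. Over all tested class 3 LADs the count was the 45 of 209 given above, and nothing particular to these families was tested.

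Families with broader roles ranged over the whole span. Of 12 potassium channel genes in 10 class 3 LADs, Kcnq3 lay in a LAD with 5649, 5582 and 5195 counts and 6 coding genes, and Kcnma1 in a silent one with 0, 0 and 2. The LAD of Arhgap32, Kcnj5, Kcnj1 and Fli1, the last a transcription factor gene, had 1551, 1189 and 1943 counts. The median log2 density of the 10 LADs was 7.57, compared with 7.97 over the 253 class 3 LADs with a coding gene. Solute carrier genes lay in 10 class 3 LADs with a median of 10.67, and Zfp zinc finger genes in 7 with a median of 10.54. Of 5 LADs with laminin or integrin-named genes, those of Lama1 and Itgb2l differed at least 4-fold, against 45 of 209 tested class 3 LADs and 18.5% of all tested LADs.

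The fibroblast label could not be checked with this table. Of 40 fibroblast and extracellular matrix genes, 4 lay in any LAD and 1, Lama1, in class 3. Class 3 LADs held few markers of other cell types. The endothelial receptor gene Flt1, whose start lay outside, overlapped a LAD with 171, 92 and 335 counts. The B cell gene Ms4a1 was 1 of 21 coding genes in a LAD with 661, 560 and 556 counts. The neuronal receptor gene Grin2b was 1 of 3 coding genes in a LAD with 6, 4 and 56. These counts cannot be assigned to the marker. The liver genes Serpina1a and Serpina1b lay in the LAD with 76, 16 and 157 counts, and the muscle myosins in the silent LAD. Keratinocyte and epithelial markers counted 0 in class 3. Line 3 was highest in the LADs of Flt1, Grin2b and the Serpina1 genes, and also in that of Lama1, with 2, 0 and 104 counts. It was lowest in the LAD of Ms4a1 (422, 374 and 322 CPM) and had 0 counts in the myosin LAD. Line 3 was also the highest in 38 of the 45 class 3 LADs that differed at least 4-fold. The same held for 102 of the 155 such LADs of the whole table. The part of other cell types in these values was not tested.

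Chromosomes contributed unequally to class 3 transcripts. Chromosome 3 held 16.8%, 16.9% and 13.5% of class 3 counts in the 3 lines, but 5.65% on average after the highest class 3 LAD of each chromosome was left out. Pooled density was highest on chromosome 6 (2078 ± 378 CPM per Mb), chromosome 2 (1935 ± 273) and chromosome 9 (1869 ± 127). It was lowest on chromosome 8 (223 ± 75.1), chromosome 5 (259 ± 110), chromosome 17 (301 ± 73.8) and chromosome 12 (306 ± 130). The high and low groups did not overlap over the lines, but they were picked as the extremes of these same values. By medians the order differed, with chromosome 14 at a log2 density of 10.01 ± 0.32 over 16 LADs and chromosome 18 at 3.70 ± 1.02 over 13.

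Set against the other classes, class 3 stood higher in pooled density and between them in the density of the typical LAD. The log2 ratio of pooled density was 0.86, 0.63 and 0.78 to class 1 and 0.62, 0.58 and 0.43 to class 2 in lines 1, 2 and 3. The median log2 density was below that of class 1 by the differences -0.80, -1.27 and -0.20 and above that of class 2 by 0.93, 1.23 and 1.95. Each of these 4 comparisons had the same sign in 3 of 3 lines. An exact sign-flip permutation test over 3 lines, two-sided, gave p = 0.25 for each, also after Benjamini-Hochberg adjustment over the 4 comparisons, and this is the smallest p that 3 lines allow. The 86 class 3 LADs whose borders no gene crossed had a pooled density of 723 ± 28.8 CPM per Mb, and the corresponding 189 LADs of class 2 had 729 ± 51.0, so class 3 was not above class 2 there. The 128 such class 1 LADs had 452 ± 10.5.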

How the data were processed

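RNA-seq was made from 3 iMEF lines with a total RNA purification kit and a TruSeq kit, per the labels' protocols. The authors deposited 1 table of raw counts for 1128 LADs with 1 column per line, per the file headers, along with coordinates and a class number. The build mm10 is named in the submitters' processing notes. The aligner, the counting tool and its use of strand and of multiply aligned reads, the LAD caller and the rule behind the classes are not given in the sources used here. Among class 3 LADs with low counts, 87.1%, 85.9% and 85.3% of values were even in lines 1, 2 and 3, so both mates of a pair may have been counted, and intervals and floors cover counting error only.

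Counts were scaled to 1000000 counts in LADs in each line and divided by LAD length, with a pseudocount of 1 for log2 values. LADs with 3 counts or fewer in each line were called silent. For the 4-fold rule, a mean count of at least 10 was required, with a prior count of 1 and scaling to column totals. TMM factors from edgeR 4.0.16 were used for the spread between lines, from 1 fit of the whole table (intercept only). Genes came from GENCODE release M21 (GRCm38, the assembly of mm10), and near-identical pseudogenes from minimap2 alignment of its transcripts (3029 genome-wide). Promoters came from RefSeq (GRCm38.p6), matched by symbol or synonym. The 4-fold step, the edgeR spread between lines and Spearman's rho were run on simulated data, and the silent step was not. The lines are 1 group, so p-values over LADs were not computed, and spread between lines may be technical as well as biological.

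LADs named are the 8 highest by mean CPM, the 5 longest, the 5 densest with a mean count of at least 100, the 5 with the widest range between lines, the 5 highest with 1 coding gene and the 5 silent ones with the most coding genes. Genes named are coding genes of these LADs and class 3 members of gene lists. Of these LADs, 2 are not reported here. Members and lists were chosen with earlier results of these data known. Alternatives were DESeq2 1.42.0 size factors, TMM, other pseudocounts, filters, folds, no division by length, and leaving out each line or the highest LADs. Leaving out LADs with near-identical pseudogenes, splits at the median length and position without the highest LADs were added after seeing the data.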

Additional observations from a re-analysis of the deposited data

How the results depend on the processing

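The share of table counts in class 3 was 18.3% without the 10 highest LADs of the table. Pooled density was 1195 CPM per Mb without the highest class 3 LAD, 913 without the 10 highest, 723 without LADs with a gene across a border and 987 without near-identical pseudogenes. The median log2 density was 8.27 with at least 10 counts, 5.03 without division by length, 4.71 without genes across a border and 5.84 without near-identical pseudogenes. Silent LADs numbered 17 at 0 counts. The 4-fold count was 29 at a mean count of at least 50, 17 at 100, 98 at a 2-fold range, 27 at 8-fold, and 14 to 39 with each line left out. With line 3 highest it was 24 at a mean count of at least 50, 14 at 100, and 25 to 39 without line 2 or line 1. The 10 highest LADs held 37.9% to 40.7% with each line left out. For length and density, rho was 0.089 with at least 10 counts, 0.55 without division by length and 0.28 without the 10 highest. Under the first pair of these settings, rho was -0.085 and 0.042 for the gap to class 1, 0.024 and 0.076 for class 2 and 0.0030 and -0.090 for class 3. Without the 10 highest it was -0.093 for class 3, and -0.072 to -0.053 with each line left out. Spearman's rho of position was 0.12 with at least 10 counts. The last 20% band of the chromosomes held 49.5% of counts without the highest LAD, 48.4% without the 10 highest and 60.3% without near-identical pseudogenes. Chromosome 3 held 5.65% without each chromosome's highest LAD. The cause of these shifts was not tested. The values of rho for the gaps to class 1 and class 3 changed sign among these settings and stayed near 0. Another 94 values of the class, and 145 of single LADs, kept their direction and were counted as unchanged. They moved by less than the spread between lines or, for counts of LADs and the edgeR spread, by no more than 1.5 times. The comparisons with class 1 and class 2 were judged by sign alone, whatever the size of the shift. Leaving out 1 of 3 lines cannot move a mean over lines by more than its SD, so this says nothing on stability there. The LAD of Chrm2 and Ptn, among the 145, went from 4264 to 1388 CPM without line 3. The share of table counts in class 3 does not depend on the scaling factors. No paired analysis was possible because the 3 lines form 1 group. Medians of 28 to 95 counts per class 3 LAD limit what can be said of single LADs, and the lines' full depth outside LADs is unknown.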

Other observations

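Class 3 LADs without a coding gene still held transcripts in places. The LAD chr12:109742397-109929896 had 504, 614 and 608 counts in lines 1, 2 and 3 (361 ± 45.0 CPM, SD, n = 3). It holds Mirg, a long non-coding RNA that hosts microRNAs, and the microRNA genes Mir541, Mir409, Mir412, Mir369 and Mir410 of an imprinted cluster, with 1 near-identical pseudogene. The LAD chr14:58141138-59048634, with 4 lincRNA genes and pseudogenes that include Rpl13-ps3, had 104, 125 and 163 counts. The LAD chr17:85766317-85911316, with the lincRNA gene Gm29418, had 2, 4 and 104 counts, so lines 1 and 2 were near the floor and line 3 was above it. These LADs were chosen after their values were seen.

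Class 1 LADs differed in transcript density with the class of their nearest LAD. The 108 class 1 LADs whose nearest LAD was class 3 had a pooled density of 1306, 1447 and 1315 CPM per Mb in lines 1, 2 and 3. The 192 with a class 1 neighbour had 585, 576 and 612, and the 109 with a class 2 neighbour had 531, 576 and 463. Median log2 densities were 8.73, 7.17 and 7.40 as means over lines. The first group was above the others in each of the 3 lines by both measures. This was seen after the values were known and was not tested.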
